A study of Homo sapiens with 24 samples.

Results

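Lysosome genes were followed in diffuse midline glioma cells treated with LLY-283, an inhibitor of the arginine methyltransferase PRMT5. The list held 39 genes, chosen by symbol from the 58676 gene identifiers of the count table, and each of the 39 was found. They comprise 8 proteases, 12 enzymes that degrade glycans, 7 lipid hydrolases, activators and cholesterol exporters, 5 membrane proteins, 3 genes of the proton pump, the transcription factors TFEB and TFE3, and LYST and GRN.

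The cells were HSJD-DIPG-007, a patient-derived line whose genotype is labelled H3F3A K27M, ACVR1 R206H and PIK3CA MIS in every library, so vehicle and treated groups share these alleles. LLY-283 was added at the dose labelled GI(40), a dose chosen to inhibit growth by 40%, which the labels call a single dose, although the methods describe fresh medium with drug or vehicle again after day 5. Vehicle and LLY-283 were each represented by 12 libraries of polyadenylated RNA, of which day 0 and day 5 had 3 each, day 7 had 2, and days 1, 2, 3 and 10 had 1 each. The study describes the libraries of a group as technical repeats of 1 line, so the p-values measure the spread between these libraries, not that between independent cultures.

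The lysosome is the acidic compartment in which proteins, glycans and lipids delivered by endocytosis and autophagy are broken down. A proton pump, the V-ATPase, acidifies its lumen, soluble hydrolases do the degradation, and membrane proteins protect the boundary and export the products. Many of these genes carry an E-box with the letters CACGTG near their start, which TFEB and TFE3 bind when they enter the nucleus, and nutrient signalling through mTORC1 holds both factors in the cytoplasm. Loss of single members causes storage disorders of the brain, among them Niemann-Pick disease, Tay-Sachs disease and the neuronal ceroid lipofuscinoses. LYST is a large protein of lysosomal trafficking that is lost in Chediak-Higashi syndrome, in which lysosomes and related organelles are enlarged.

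The E-box was searched in the RefSeq promoter windows of GRCh38.p14, which run from 250 bases before to 50 bases after each gene's start. The 6 letters read the same on both strands. Of the 39 members, 30 had a window, and 9 of these 30 (30%) held the E-box, against 7.43% of 27305 promoters. Each of the 9 held the flanked form TCACGTG or CACGTGA, which 3.82% of promoters hold and which contains the plain E-box. The 30 bases around the E-box are shown for these 9 members because they are the sequence the family is known to share; the E-box is in capitals and the rest in lower case, each 5′ to 3′ on the strand of the gene.
ATP6V0D1, chr16:67481199-67481228, minus strand: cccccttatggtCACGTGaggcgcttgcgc
CLN3, chr16:28492087-28492116, minus strand: aaaacctctgagCACGTGatgggggaacac
CTSA, chr20:45891281-45891310, plus strand: gaggaagactgtCACGTGgcgccggagttc
CTSD, chr11:1763957-1763986, minus strand: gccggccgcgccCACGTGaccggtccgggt
CTSF, chr11:66568712-66568741, minus strand: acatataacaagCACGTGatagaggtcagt
GAA, chr17:80101493-80101522, plus strand: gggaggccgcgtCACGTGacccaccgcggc
LAMP1, chr13:113297035-113297064, plus strand: accaggccgggtCACGTGggtccagggtca
MCOLN1, chr19:7522571-7522600, plus strand: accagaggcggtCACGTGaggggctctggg
NEU1, chr6:31862930-31862959, minus strand: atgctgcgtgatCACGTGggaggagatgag
CLN3, CTSA, CTSF, GAA and MCOLN1 held 2 E-boxes each in the window, and LAMP1 held 6. For these the first flanked E-box from the upstream end is shown, and the positions of the others are not given. The E-box shown began 30 bases before the start in CLN3, 41 in MCOLN1, 42 in CTSA, 47 in CTSD, 59 in ATP6V0D1 and 76 in GAA. In CTSF, NEU1 and LAMP1 the E-box shown began 123, 126 and 192 bases before the start. These letters were not found in the windows of LYST, TFEB, TFE3, SMPD1 or FUCA2. A match is a description of the sequence and not evidence of binding.

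The data were an estimated count per gene and library, and the library totals lay between 13835205 and 23190369. Levels are given as CPM, counts scaled to the library size after normalisation with the TMM method over all 24 libraries. At day 5 the totals of the 3 vehicle libraries (at most 16691287) lay below those of the 3 LLY-283 libraries (17339741 to 19516458), and the part of depth in the differences was not tested. Over all genes, both day 7 libraries with the repeat number 2 resembled the other treatment more than their own, and their values are given under the labels they carry. The glioma precursor markers summed to 5520 to 6970 CPM over 8 genes, whereas 10 microglia and macrophage markers summed to 0.683 to 2.45 CPM, with TYROBP at 0 in each library. Vehicle day 5 repeat 3 stood apart in fibroblast-type genes, with COL1A1 at 53.8 CPM and FN1 at 60.4 CPM.

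Marker sums also differed between treatments at day 5. The 10 fibroblast markers summed to 205, 211 and 371 CPM with vehicle, where repeat 3 was the highest, and to 294, 289 and 291 CPM with LLY-283. The groups overlapped through vehicle repeat 3 alone, and of the 9 markers tested LUM, POSTN and THY1 were called higher and 0 lower in edgeR. The glioma precursor markers summed to 6100, 5970 and 6140 CPM with vehicle and to 5760, 5650 and 5730 CPM with LLY-283, with 2 of 7 tested called higher and 2 lower. Of all genes tested at day 5, 12% were called higher and 14.1% lower. The part of these marker differences in the day 5 results was not tested.

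Gene exons overlapped those of another gene for 20 of the 39 members, on the same strand for 10 and on the other for 17. Among the 20 members called in the day 5 comparison below, 13 had such an overlap, 7 on the same strand and 12 on the other. Whether the counting used strand is not given in the sources used here, so reads of overlapping genes may be shared. The part of such reads in the day 5 calls was not tested.

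The question of the day 5 comparison was which lysosome genes differed after 5 days of PRMT5 inhibition. At that day 20 of the 38 members tested (52.6%) passed edgeR's quasi-likelihood test at a Benjamini-Hochberg adjusted p under 0.01, against 26.1% of all 16491 genes tested. Of these, 19 were higher with LLY-283 (50% of members against 12% of all genes) and FUCA2 alone was lower (2.63% against 14.1%). In this comparison, also for the other lists below, rose and fell mean higher or lower than with vehicle, not a change since day 0. The changes were small. The median log2 fold change of the members was 0.19, against 0.02 over all genes tested, and 15 of the 20 called changes lay between 0.12 and 0.31. In bulk RNA, a shift in the share of cells of one kind and a shift in RNA per cell cannot be told apart. The 3 libraries of each treatment group did not overlap for 23 members, against 46.3% of all genes. These were 21 members that were higher with LLY-283 (55.3%, against 20.7% of all genes) and 2 that were lower (5.26% against 25.5%), and for 15 members the groups overlapped. At an adjusted p under 0.05, 25 members were called, against 36.7% of all genes.

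**Figure D1:**
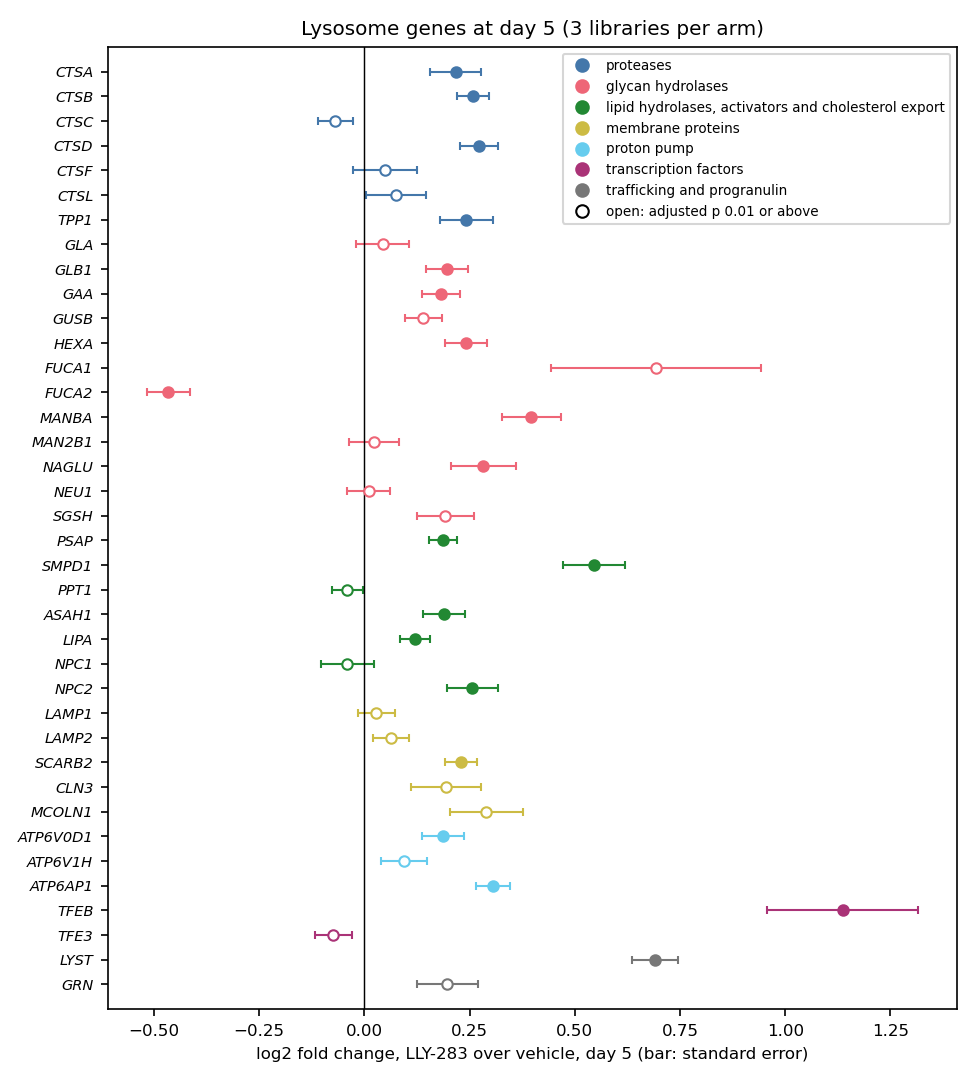
Log2 fold change of LLY-283 over vehicle at day 5 for the 38 tested members, with standard error bars, coloured by role; filled points passed an adjusted p under 0.01 (edgeR) and open points did not. Most points lie between 0 and 0.31, TFEB (1.14), LYST (0.69) and SMPD1 (0.55) lie to the right of the other filled points, and FUCA2 (-0.47) is the only filled point below 0.

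LYST was at 39.7, 41.6 and 40.3 CPM in the 3 vehicle libraries of day 5 and at 62.1, 62.1 and 68.4 CPM in the LLY-283 libraries. Every treated library was above every vehicle library. The log2 fold change of LYST was 0.69 ± 0.054 (SE), with an adjusted p of 8.3e-11 (edgeR), and the gene had been placed on the list with an earlier call of its time course known. On GRCh38, LYST lies at chr1:235661041-235883724 on the minus strand, and its exons overlap the pseudogene LDHAP2 on the other strand. GRN encodes progranulin, a secreted protein that lysosomal proteases cut into granulins. GRN did not pass the test, with a log2 fold change of 0.20 and an adjusted p of 0.033 (edgeR).

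TFEB, the factor that drives transcription of lysosome genes, was at 3.04, 2.50 and 1.92 CPM in the vehicle libraries and at 5.83, 5.73 and 4.75 CPM in the treated libraries. The groups did not overlap. These levels rest on 49, 38 and 26 counts with vehicle and on 100, 109 and 95 counts with LLY-283, and the log2 fold change was 1.14 ± 0.18 (SE) with an adjusted p of 1.3e-05 (edgeR). TFE3, its relative, moved the other way without passing the test. TFE3 was at 82.0, 82.2 and 84.9 CPM with vehicle and at 79.4, 80.1 and 73.1 CPM with LLY-283, with a log2 fold change of -0.07 and an adjusted p of 0.20 (edgeR). The treated libraries of TFE3 were all below the vehicle libraries, by a small margin.

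Among the lipid enzymes, SMPD1, the acid sphingomyelinase that is deficient in Niemann-Pick disease types A and B, changed most. It was at 15.9, 15.6 and 16.1 CPM with vehicle and at 23.0, 22.7 and 22.5 CPM with LLY-283. The libraries of each group lay close together and far from the other group, and the log2 fold change was 0.55 ± 0.073 (SE) with an adjusted p of 1e-06 (edgeR). NPC2 is the soluble protein that hands cholesterol to NPC1 for export. NPC2 was at 28.0, 27.1 and 29.9 CPM with vehicle and at 35.0, 32.1 and 32.6 CPM with LLY-283, a log2 fold change of 0.26 ± 0.061 (SE; adjusted p = 0.0015, edgeR), and the groups did not overlap. NPC1 itself had a log2 fold change of -0.04 and did not pass. PSAP, the precursor of the saposins that present sphingolipids to their hydrolases, was higher with LLY-283 by a log2 fold change of 0.19. ASAH1, the acid ceramidase, was higher by 0.19 and LIPA, the lysosomal acid lipase, by 0.12 on the same scale. PPT1, which removes palmitate from proteins, had a log2 fold change of -0.04 and did not pass. Thus 5 of the 7 lipid members were higher with LLY-283 than with vehicle at day 5, and 2 did not pass the test. From day 0 to day 5 with LLY-283, PSAP had a log2 fold change of -0.22 and LIPA 0.45, and both passed. SMPD1, NPC2 and ASAH1 had 0.13, -0.10 and -0.05 over that time and did not pass.

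Of the 12 glycan hydrolases, 5 rose, 1 fell and 6 did not pass. FUCA2, an alpha-fucosidase that is largely secreted, was at 60.4, 57.4 and 54.4 CPM with vehicle and at 40.6, 41.5 and 40.5 CPM with LLY-283. The treated libraries were all below the vehicle libraries, and the log2 fold change was -0.47 ± 0.052 (SE) with an adjusted p of 5.4e-08 (edgeR). FUCA1, the lysosomal fucosidase, had a log2 fold change of 0.69 ± 0.25 (SE) and did not pass the test (adjusted p = 0.033, edgeR), on 20, 28 and 19 counts with vehicle and 48, 47 and 38 counts with LLY-283. MANBA, the beta-mannosidase, was at 20.8, 19.4 and 20.7 CPM with vehicle and at 25.2, 26.2 and 27.2 CPM with LLY-283. Its groups were separate, with a log2 fold change of 0.40 ± 0.07 (SE; adjusted p = 4.5e-05, edgeR). NAGLU, which degrades heparan sulfate, was at 16.6, 16.8 and 18.2 CPM with vehicle and at 20.0, 20.1 and 21.4 CPM with LLY-283, a log2 fold change of 0.28 ± 0.077 (SE; adjusted p = 0.0045, edgeR). The lowest treated library of NAGLU was above the highest vehicle library. HEXA, a subunit of beta-hexosaminidase, GLB1, the beta-galactosidase, and GAA, which degrades glycogen, were higher with LLY-283 by log2 fold changes of 0.24, 0.20 and 0.18. SGSH, GUSB, GLA, MAN2B1 and NEU1 did not pass, with log2 fold changes of 0.19, 0.14, 0.04, 0.02 and 0.01.

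Of the 7 proteases tested, 4 rose and 3 did not pass. CTSD, the aspartic protease cathepsin D, was at 66.4, 67.7 and 69.6 CPM with vehicle and at 83.3, 76.9 and 81.6 CPM with LLY-283. The groups were separate for CTSD, whose fold change was 0.27 ± 0.045 on the log2 scale (SE; adjusted p = 1.7e-05, edgeR). CTSB, a cysteine cathepsin, was at 117.6, 112.6 and 111.2 CPM with vehicle and at 137.6, 131.0 and 132.8 CPM with LLY-283. CTSB also separated the groups, with a log2 fold change of 0.26 ± 0.038 (SE; adjusted p = 4.8e-06, edgeR). TPP1, a tripeptidyl peptidase, was at 32.2, 32.8 and 27.5 CPM with vehicle and at 35.7, 34.9 and 37.1 CPM with LLY-283, a log2 fold change of 0.24 ± 0.064 (SE; adjusted p = 0.0038, edgeR). The vehicle library of TPP1 that was lowest is the one with high fibroblast-type genes, and without it TPP1 lost its call. CTSA, which shields beta-galactosidase and neuraminidase, rose by a log2 fold change of 0.22, although the groups overlapped. CTSL, CTSF and CTSC did not pass, with log2 fold changes of 0.08, 0.05 and -0.07. CTSZ was not tested, since it had 3, 7 and 6 counts with vehicle and 10, 13 and 12 counts with LLY-283.

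Both accessory and membrane-bound parts of the proton pump were measured. ATP6AP1, an accessory protein of V-ATPase assembly, was at 113.9, 110.2 and 105.0 CPM with vehicle and at 140.4, 129.4 and 130.8 CPM with LLY-283. No treated library fell to the vehicle range, and the log2 fold change was 0.31 ± 0.04 (SE; adjusted p = 8.2e-07, edgeR). ATP6V0D1, a subunit of the membrane sector, rose by a log2 fold change of 0.19, whereas ATP6V1H, of the cytoplasmic sector, had 0.09 and did not pass. Of the 5 membrane proteins, only SCARB2, the receptor that carries glucocerebrosidase to the lysosome, rose, by a log2 fold change of 0.23 ± 0.038 (SE; adjusted p = 2.3e-05, edgeR). LAMP1 and LAMP2, the abundant glycoproteins of the lysosomal membrane, had log2 fold changes of 0.03 and 0.06 and did not pass. The calcium channel MCOLN1 and CLN3 had log2 fold changes of 0.29 and 0.19 and did not pass either.

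The stability of these calls differed between members. ATP6AP1, CTSD, FUCA2, LYST, MANBA, SCARB2, SMPD1 and TFEB kept their call in each of the 14 alternative analyses, 8 of the 20. CTSB, HEXA and PSAP lost it in the fit of 22 libraries alone. The other 9 also lost it in DESeq2 and when at least 1 library was left out. Without vehicle day 5 repeat 1 the members called higher were 12, where ASAH1, ATP6V0D1, CTSA, GLB1, LIPA, NAGLU and NPC2 lost their call. Without vehicle repeat 2 the same genes apart from CTSA lost it, and without vehicle repeat 3 these were CTSA, GAA, LIPA and TPP1. Without LLY-283 repeat 1 the calls lost were ASAH1, ATP6V0D1, CTSA, LIPA and NPC2, without repeat 2 ASAH1, ATP6V0D1, GAA, GLB1, LIPA and NAGLU, and without repeat 3 ATP6V0D1, CTSA, GAA, NAGLU and TPP1. In each of these a higher level with LLY-283 remained.

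The day 5 changes were also set out by whether the promoter window held an E-box, without a test. Of all genes tested, 26.1% were called and 12% were called higher. Of the 9 members with an E-box, 4 were called at day 5 (ATP6V0D1, CTSA, CTSD and GAA), all higher. The log2 fold changes of the 9 ran from 0.01 to 0.29 with a median of 0.19. Of the 20 tested members with a window but no E-box, 10 were called, 9 of them higher, with a median of 0.17. The 9 members without a window held 6 called genes, all higher, with a median of 0.19. LYST, TFEB, SMPD1 and FUCA2, which changed most among the called members with a window, are all without these letters there. Other starts of a gene and variants of the letters were not searched. The part of the E-box in these changes was not tested.

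The day 0 libraries give the background of this comparison at the start. There, 0 of 39 members passed the edgeR test (0.0169% of 17780 genes did) and 0 passed in DESeq2. In edgeR 2 members had an unadjusted p under 0.05, as had 1012 of all 17780 genes. These were GRN and ATP6V1H, whose log2 fold changes were 0.15 and 0.11. The median log2 fold change was 0.01. LYST lay at 31.2, 30.5 and 31.2 CPM with vehicle and at 30.9, 31.7 and 28.8 CPM in the libraries labelled LLY-283, and these ranges overlapped.

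Members differed in both directions between the days with vehicle, at shares near those of all genes. Between day 0 and day 5 of vehicle, 18 of 38 members tested changed (47.4%, against 38.9% of 17106 genes, edgeR with Benjamini-Hochberg adjustment). The 10 that rose were CTSF, TFE3, LIPA, LYST, NPC1, NEU1, CTSD, LAMP1, ATP6AP1 and SCARB2 (26.3% of members against 22.2% of all genes). CTSF, a cysteine protease, rose most, by a log2 fold change of 1.00, and TFE3, LIPA and LYST rose by 0.42, 0.38 and 0.37. The 8 that fell were SMPD1, HEXA, PSAP, TPP1, NPC2, CTSL, ASAH1 and FUCA2 (21.1% against 16.7%), of which SMPD1, HEXA and PSAP had log2 fold changes of -0.43, -0.40 and -0.37. Calls that rested on 1 library were ASAH1, lost without vehicle day 5 repeat 2, and FUCA2, lost without vehicle day 5 repeat 3. LAMP1 lost its call without vehicle day 0 repeat 2, ATP6AP1 without that library or vehicle day 5 repeat 1, and CTSL without any of 5 libraries, all except vehicle day 0 repeat 1. CTSL also lost its call in DESeq2, and ATP6AP1, LAMP1 and SCARB2 lost theirs with library size alone.

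With LLY-283 the change over the same days was mostly upward. Between day 0 and day 5, 23 of 39 members changed (59%, against 42.4% of 17341 genes), and 21 of them rose (53.8% against 22.9%) while 2, FUCA2 and PSAP, fell (5.13% against 19.5%). TFEB rose by a log2 fold change of 1.71, LYST by 1.10 and CTSF by 1.03. All 10 members that rose with vehicle also rose with LLY-283, CTSF by nearly the same amount. The other 11 risers were TFEB, CTSB, MCOLN1, NAGLU, MANBA, SGSH, GRN, ATP6V0D1, LAMP2, GLB1 and GUSB. With vehicle they did not pass, at log2 fold changes from -0.05 (GLB1 and MANBA) to 0.56 (TFEB), with GRN at 0.20 and LAMP2 at 0.13. With LLY-283 GRN had 0.24 and LAMP2 0.18. Of the 11, only TFEB, CTSB and MANBA passed the interaction test below. Among the 11, GLB1, GRN, GUSB, NAGLU and SGSH lost their call over time in DESeq2 and without LLY-283 day 0 repeat 2. ATP6V0D1 lost its call in DESeq2 alone. GLB1 and GUSB also lost theirs without the filter on low counts, and GLB1 with DESeq2 size factors in edgeR. Leaving out LLY-283 day 0 repeat 1 also ended the call of GLB1, GUSB and NAGLU, day 0 repeat 3 that of GLB1, GRN and SGSH, day 5 repeat 1 that of GRN, day 5 repeat 2 that of GLB1 and SGSH, and day 5 repeat 3 that of GLB1, GUSB and NAGLU. Of the 8 members that fell with vehicle, 6 did not pass with LLY-283, where HEXA had a log2 fold change of -0.13, TPP1 -0.04, NPC2 -0.10, ASAH1 -0.05, CTSL -0.15 and SMPD1 0.13. The day 5 libraries enter both this comparison and that between treatments, so the values are given side by side and are not independent.

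**Figure D2:**
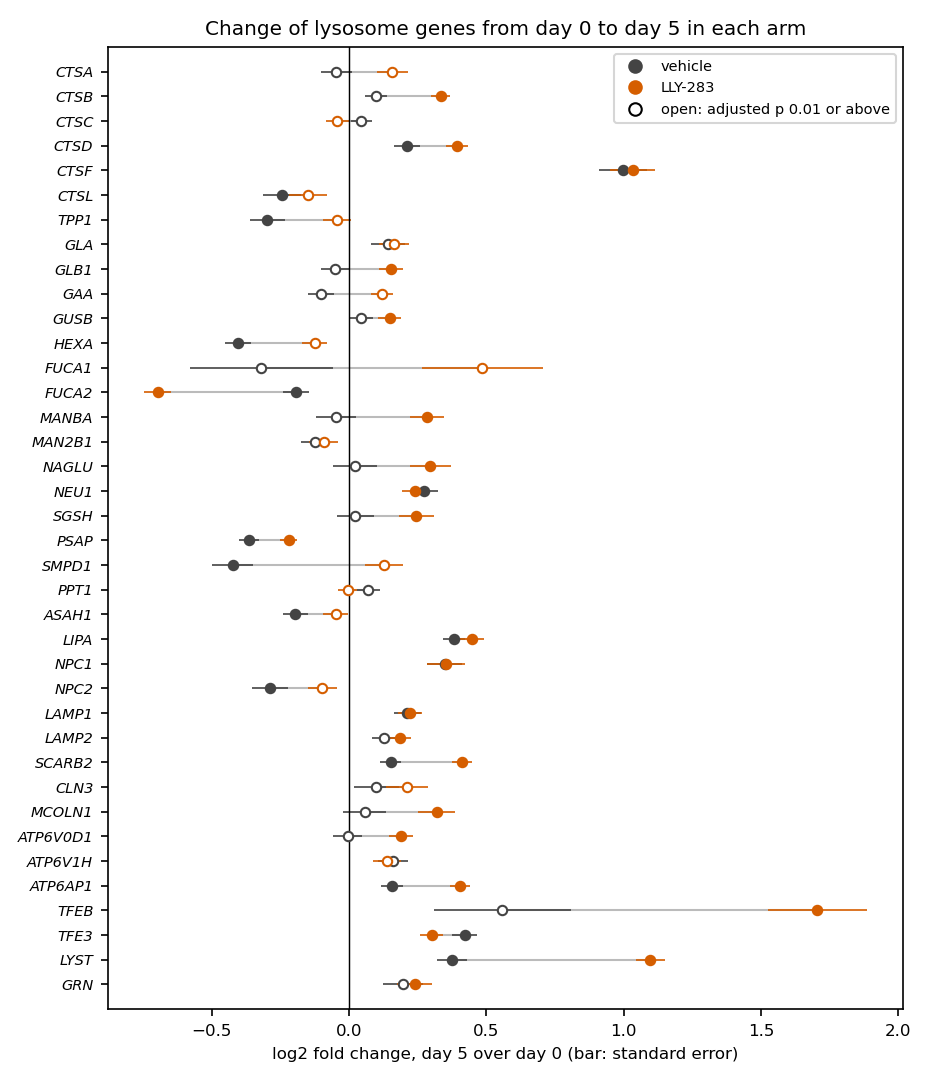
Log2 fold change of day 5 over day 0 for each tested member in vehicle (dark) and LLY-283 (orange) libraries, with standard error bars; filled points passed an adjusted p under 0.01 (edgeR). The orange points of TFEB (1.71) and LYST (1.10) lie far to the right of their dark points, the points of CTSF (1.00 and 1.03) coincide, and SMPD1 lies below 0 with vehicle (-0.43) and at 0.13 with LLY-283.

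The difference between these time courses was tested directly, as the treatment effect at day 5 less that at day 0 in the 12 libraries of both days. Of 39 members 10 passed (25.6%, against 14.9% of 18369 genes), 9 with a larger effect at day 5 (23.1% against 6.78%) and FUCA2 with a lower one (2.56% against 8.15%). The difference of log2 fold changes was 1.15 ± 0.30 (SE) for TFEB, 0.73 ± 0.077 for LYST, 0.56 ± 0.098 for SMPD1 and -0.50 ± 0.069 for FUCA2, with adjusted p of 0.0049, 8.3e-08, 0.00011 and 4.3e-06 (edgeR). LYST had been listed with an earlier call of its time course known, and that course includes these 12 libraries. Its result here, and its place among the 9, are therefore not independent of its choice. MANBA, HEXA, SCARB2, ATP6AP1, CTSB and GAA followed with 0.34, 0.29, 0.27, 0.26, 0.24 and 0.23. LYST, SMPD1, FUCA2, SCARB2 and ATP6AP1 kept their call whichever of the 12 libraries was left out. CTSB lost it without vehicle day 0 repeat 1 and HEXA without LLY-283 day 0 repeat 3. In DESeq2 the interaction call was lost for TFEB, HEXA, GAA and MANBA, and with DESeq2 size factors in edgeR for GAA and MANBA. GAA also lost it without the filter on low counts. TFEB lost it without any of 8 libraries, namely vehicle day 0 repeats 1 and 2, vehicle day 5 repeats 2 and 3, LLY-283 day 0 repeats 1 and 2 and LLY-283 day 5 repeats 1 and 2, with values between 0.99 and 1.32 over all 12. GAA lost it without any of 9 libraries, those other than vehicle day 5 repeats 1 and 2 and LLY-283 day 5 repeat 1, and MANBA without any of 10, those other than vehicle day 0 repeat 1 and LLY-283 day 5 repeat 1.

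The day by day levels show when the members diverged, with 1 library per group at days 1, 2, 3 and 10 and therefore no test there. LYST was at 32.9, 33.4 and 30.9 CPM with vehicle at days 1, 2 and 3, and at 33.3, 36.3 and 57.6 CPM with LLY-283. The treated library of day 3 was thus already near the treated level of day 5. At day 10 LYST was at 67.0 CPM with vehicle and 64.5 CPM with LLY-283, so the treated library was no longer the higher. FUCA2 was at 54.7, 55.8 and 55.6 CPM with vehicle at days 1, 2 and 3 and at 50.1, 47.4 and 40.5 CPM with LLY-283. Its treated level at day 3 lay at that of day 5, and at day 10 the levels were 48.5 CPM with vehicle and 44.3 CPM with LLY-283. MANBA, too, was higher with LLY-283 at day 3, at 25.1 against 19.9 CPM, and lower at day 10, at 32.6 against 37.5 CPM. SMPD1 and TFEB differed less at day 3 than at day 5. At day 3 SMPD1 was at 18.3 CPM with vehicle and 19.4 CPM with LLY-283, and TFEB at 2.14 and 2.77 CPM. At day 1 TFEB was at 1.971 CPM with vehicle and 2.795 CPM with LLY-283, on 45 and 49 counts. At day 10 SMPD1 was at 20.0 and 24.8 CPM, and TFEB at 5.25 and 4.26 CPM.

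**Figure D3:**
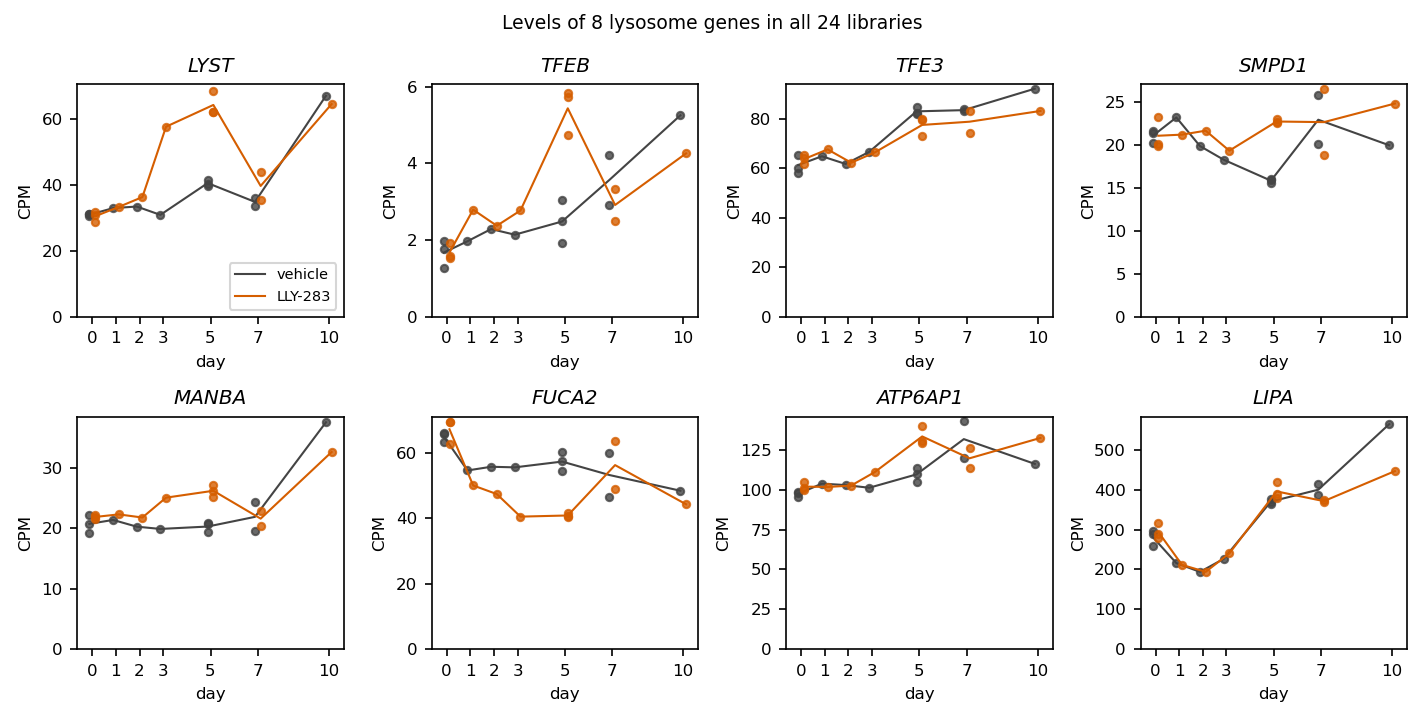
Level in CPM (y axis, from 0) of 8 lysosome genes against day for vehicle (dark) and LLY-283 (orange), with a point per library and a line through the mean of each day; day 7 is drawn by label. LYST and FUCA2 separate by treatment at days 3 and 5, and SMPD1 and TFEB most at day 5. LYST lies at 67.0 and 64.5 CPM at day 10, and LIPA is lower at days 1 to 3 than at day 0 in both groups and higher at day 5.

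Summed over the list, the members took 0.271 to 0.273% of all counts in the vehicle libraries of day 5 and 0.302 to 0.310% in the LLY-283 libraries, and PSAP, with a mean of 7396.8 counts at day 5, was the member with the most counts. The share was 0.254% with vehicle and 0.268% with LLY-283 at day 3, and 0.342% and 0.327% at day 10. The difference in log2 CPM between treatments was above 0 for 12 of 39 members at day 1, 16 on the next day, 18 on day 3 and 32 on day 5, with medians of -0.07, -0.01, -0.01 and 0.16. On these days it was above 0 for 47.8%, 48.7%, 48.6% and 51.9% of all 20876 genes. At day 10 it was above 0 for 20 members, with a median of 0.01, and for 49.4% of all genes. Already at day 0 it was above 0 for 29 members, with a median of 0.03, and for 54.3% of all genes. The medians over 20876 genes lay between -0.01 and 0.01 on every day.

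At day 7 the labelled groups did not separate. Both repeat 2 libraries resembled the other treatment over all genes. On simulated counts this test recovered 8% of genes with a log2 change of 0.5. The lack of calls therefore does not show that the treatments no longer differed at day 7. In edgeR 0 of 39 members passed (0% of 16826 genes), 0 had an unadjusted p under 0.05, whereas 236 genes had, and DESeq2 called 0 members. The pair labelled repeat 1 had 27 members higher with LLY-283 (49.1% of all genes were), with a median difference of 0.07 in log2 CPM. The pair labelled repeat 2 had 4 (49% of all genes were), with a median of -0.16. LYST was at 33.7 CPM with vehicle and 43.9 CPM with LLY-283 in repeat 1 and at 35.9 and 35.4 CPM in repeat 2. FUCA2 was at 60.1 and 48.9 CPM in repeat 1 and at 46.5 and 63.7 CPM in repeat 2, and SMPD1 at 20.1 and 26.5 CPM and at 25.8 and 18.8 CPM. Matched by repeat number, FUCA2 and SMPD1 differed in opposite directions. The repeat numbers do not pair the libraries, so these directions and the counts of 27 and 4 follow the labels only.

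**Figure D4:**
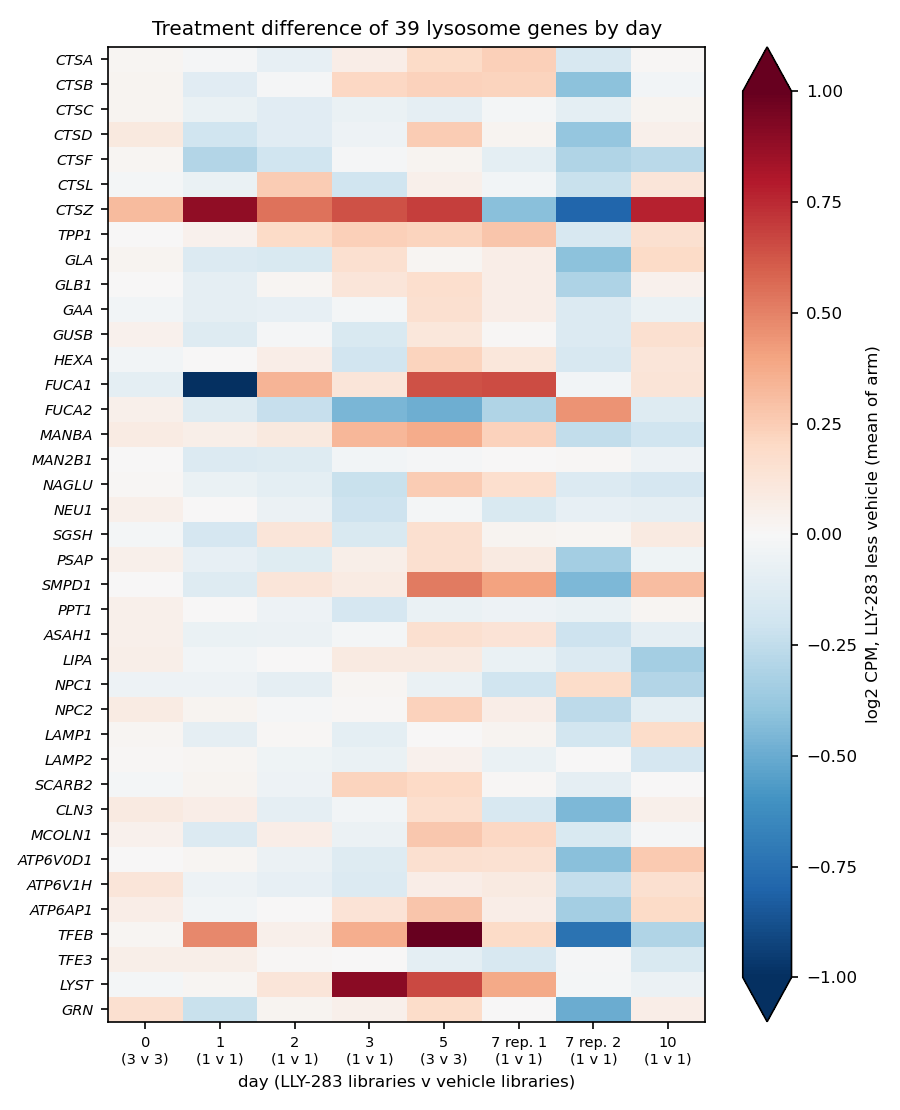
Difference in log2 CPM between LLY-283 and vehicle (colour scale, red higher with LLY-283) for each of the 39 members (rows) on each day (columns), with the number of libraries under the day and day 7 split by repeat label. Day 5 is red for 32 members, day 7 repeat 2 is red for 4, and LYST is red and FUCA2 blue at days 3, 5 and 7 repeat 1; the strong colours of CTSZ and FUCA1 rest on few counts.

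Tested over 22 libraries up to day 7, treatment and day interacted significantly for LYST alone, 1 of 39 members (2.56%, against 0.0289% of 20756 genes). In the same edgeR test 9 members had an unadjusted p under 0.05, as had 3166 of all 20756 genes. The adjusted p of LYST was 0.0052 (edgeR), and it had been seen before LYST was listed. It lay between 0.012 and 0.027, above the threshold, when any of the 12 libraries of days 0 and 5 was left out, and between 3.2e-05 and 0.0026 when any of the 4 libraries of day 7 was. Without vehicle day 7 repeat 1, 4 members passed among 1.32% of 20717 genes, and without LLY-283 day 7 repeat 1, 4 passed among 4.32% of 20699, so calls over all genes rose too. Without day 7, 7 members passed, among 9.61% of 20642 genes. These were LYST, FUCA2, SMPD1, CTSD, CTSB, SCARB2 and ATP6AP1, with adjusted p of 1e-07, 4.9e-05, 0.00099, 0.0011, 0.0014, 0.004 and 0.0045 (edgeR). The genes whose log2 CPM followed LYST most closely over the 24 libraries were PTPRZ1, CLSTN3, APC2, SEMA4B and CYBRD1, with Pearson correlations between 0.938 and 0.960 among 20756 genes. The libraries share treatment, day and depth, so these correlations are descriptive.

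Other genes of the lysosome and its supply routes were counted at day 5 from lists of the pathway. Of 26 genes listed as other lysosomal hydrolases, 8 rose and 0 fell, with a median log2 fold change of 0.10. CTSK, a cathepsin, rose most (0.99). Of 15 other proton pump subunits 2 rose and 0 fell (median 0.10), ATP6V0E2 most (0.42). Of 18 genes listed as other lysosomal membrane proteins, 8 rose and 2 fell (median 0.18). TMEM175, a lysosomal ion channel, rose by a log2 fold change of 0.55. CLN6 had -0.53 and is on that list although it is an endoplasmic reticulum protein, needed to export hydrolases. Of 10 genes that tag and sort hydrolases by mannose 6-phosphate, 4 rose and 1 fell (median 0.19), with the adaptor GGA1 at 0.33 and GGA2 at -0.27. These counts are read against the 12% of all genes that rose and the 14.1% that fell, and no list was tested as a set.

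Upstream of TFEB and TFE3, 4 of 18 nutrient signalling genes rose and 1 fell (median 0.06), where 12% of all genes rose and 14.1% fell, shares that also apply to the lists that follow. FLCN, which licenses the cytoplasmic retention of both factors, rose by a log2 fold change of 0.47, and LAMTOR4, of the Ragulator scaffold, had -0.20. Of 19 autophagy genes tested 0 rose and 1 fell, ATG16L1 with -0.13 (edgeR; 11 of the 19 had an unadjusted p under 0.05, as had 7328 of all 16491 genes), and the median was 0.02. Of 7 relatives of LYST with a BEACH domain 2 rose and 0 fell (median 0.20), LRBA by 0.21. Of 17 genes for the biogenesis of lysosome-related organelles, the pathway in which LYST is studied, 1 rose and 2 fell (median -0.04), with HPS4 at 0.27 and HPS6 at -0.34.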

How the data were processed

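Polyadenylated RNA of HSJD-DIPG-007 cells was sequenced in 24 libraries prepared with a directional kit. The authors assigned reads to human transcripts with kallisto (hg38 per the labels) and deposited their estimated counts by gene, as whole numbers without normalisation. The kallisto version and its use of strand are not given in the sources used here. Of 58676 identifiers, 58207 were matched to a symbol.

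Counts were tested with edgeR 4.0.16 in R 4.3.3 (TMM, filter on low counts by group, robust quasi-likelihood, Benjamini-Hochberg over all genes tested, calls at an adjusted p under 0.01). Each comparison was fitted on its own libraries, and day 10 entered no test. The standard error is the log2 fold change divided by the square root of F. CPM came from TMM over 24 libraries, so that CPM ratios differ slightly from fitted fold changes, and daily differences used a prior count of 2. DESeq2 1.42.0, its size factors, library size alone, other filters, a block for the repeat number, a fit of 22 libraries, a threshold of 0.05 and leaving out each library were alternatives, and a group left with 1 library was assumed to vary like the others. On simulated counts the day 5 test recovered 97% of genes with a log2 change of 1 and 76% at 0.5, against 82% and 8% for day 7. These changes were placed only in genes above a minimum mean count. Smaller changes, such as the 0.12 to 0.31 of 15 called members, were not simulated, so their recovery is not known.

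Library values were given for LYST, TFEB and TFE3 and for the called members with separate groups at day 5, up to the 10 largest changes in each direction. From each other list the largest called increase and decrease were named. The E-box analysis covered members with a RefSeq promoter entry. The members and lists were chosen with earlier results of these data known.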

Additional observations from a re-analysis of the deposited data

Results flagged for a closer look

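For 10 members the treatment effect at day 5 differed from that at day 0 by the interaction test in edgeR (adjusted p under 0.01). These are 25.6% of the members, against 14.9% of all 18369 genes tested, and are listed for a closer look. The effect was larger at day 5 by a log2 difference of 1.15 for TFEB, 0.73 for LYST and 0.56 for SMPD1. It was larger by 0.34 for MANBA, 0.29 for HEXA, 0.27 for SCARB2, 0.26 for ATP6AP1, 0.24 for CTSB and 0.23 for GAA. For FUCA2 the difference was -0.50, a lower effect at day 5. All 10 were also called at day 5, from libraries that enter both tests. LYST had been listed with an earlier call of its time course known, so its place among the 10 is not independent of its choice. In DESeq2 the interaction call was lost for TFEB, HEXA, GAA and MANBA. Over all alternatives MANBA lost it in 13, GAA in 12 and TFEB in 9, mostly when a library was left out. HEXA lost it in 2 and CTSB in 1.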

How the results depend on the processing

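The day 5 count of 20 members (19 higher, 1 lower), beside 4304 of all genes, was 11 in DESeq2 (10 higher) and 8 in the fit of 22 libraries (7 higher). When a library was left out it ran from 13 to 17 (12 to 15 higher, 1 to 2 lower), beside 3193 to 4423 of all genes. The interaction of day 5 with day 0 gave 6 members in DESeq2 (5 higher) in place of 10, and 14 higher with library size alone in place of 9. Without a library it gave 7 to 9 members, beside 2126 to 3000 of all genes, where all libraries gave 2742. The counts in DESeq2, in the fit of 22 libraries and with library size alone are given without the share of all genes. A change in these counts therefore cannot be told apart from a change in calls over all genes. The time course count of 1 (6 of all genes) became 6 without the filter (1217 of 43331 genes), 7 without day 7 (1984 of 20642) and 0 to 4 without a library (0 to 894 of all genes), and the adjusted p of LYST ran from 3.2e-05 to 0.027 without a library. Direction at day 5 turned for members that were not called, NEU1 (-0.02) and MAN2B1 (0.00) in the fit of 22 libraries. When a library was left out, GLA ran from -0.02 to 0.10, NEU1 from -0.03 to 0.03 and MAN2B1 from -0.03 to 0.08, and ASAH1 over time with LLY-283 from -0.12 to 0.00. The cause was not tested. The counts of 0 members at days 0 and 7 held in each alternative run. The counts of TFEB, FUCA1 and CTSZ were low, at most 109 in a day 5 library.

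The repeat numbers do not pair the libraries, as same-numbered libraries of different groups had deviations correlated between -0.08 and 0.05. With a replicate block, the time course count was 0 and the adjusted p of LYST 0.031, the day 5 count of higher members stayed at 19, and the interaction lost MANBA.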
